A study of Mus musculus with 8 samples.

Results

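The genes described here are 10 genes of the actin cytoskeleton, most of them known targets of serum response factor (SRF): Actb, Actg1, Acta2, Tpm1, Tpm2, Cnn1, Cnn2, Tagln, Myl9 and Vcl. They were chosen by name for their roles, at a time when earlier results of these data were known. The deposited table held all 10 of them among its 20189 genes. The samples were 4T1 cells, a mouse mammary carcinoma line with no engineered change in genotype (labelled WT), grown in DMEM with serum and kept for 48 h in 5 mM acetate or in water as vehicle. Each treatment had 4 libraries, and libraries with the same replicate number shared an experiment code in their labels, giving 4 pairs. The study used acetate to raise the supply of acetyl-CoA in these cells and sequenced mRNA to see how their gene expression responded.

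Actin monomers assemble into filaments that carry cell shape, adhesion and movement. Tropomyosins and calponins run along or bind the filaments, myosin light chains set contraction, and vinculin links filaments to adhesion sites. Unassembled actin holds the coactivators MRTF-A and MRTF-B in the cytoplasm, and when filaments form these coactivators are freed, enter the nucleus and act with SRF on the CArG box, a DNA element in the promoters of many genes of the filaments themselves. In smooth muscle and myofibroblasts this route drives Acta2, Cnn1, Tagln and Myl9, while Actb, Actg1, Cnn2 and Vcl are used by most cell types.

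A CArG box, written here as CC, then 6 bases that are each A or T, then GG, lies upstream of several members. RefSeq promoter windows (250 bases before to 50 bases after the gene start, build GRCm38.p6) were matched for 8 of the 10 genes, all but Actb and Tagln. The motif, read on both strands, was in the windows of Actg1, Cnn2, Vcl and Myl9, that is in 4 of 8, and in 1.63% of all 32851 windows of that length. With 1 of the 6 middle bases allowed to be G or C, it was in 5 of 8 (Acta2 added) and in 9.98% of all windows. Below are the stretches of the windows that lie outside annotated exons, for the 4 genes with the motif and for Tpm2, the member that passed the test described below. Capitals mark the CArG box, and in Myl9 also the second copy with 1 differing middle base. The letters are those of the reference genome and were not read from 4T1 cells.
Actg1 (chr11:120348543-120348677, minus strand): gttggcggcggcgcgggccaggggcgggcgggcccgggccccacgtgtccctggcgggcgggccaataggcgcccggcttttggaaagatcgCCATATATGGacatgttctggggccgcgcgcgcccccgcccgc
Cnn2 (chr10:79988350-79988583, plus strand): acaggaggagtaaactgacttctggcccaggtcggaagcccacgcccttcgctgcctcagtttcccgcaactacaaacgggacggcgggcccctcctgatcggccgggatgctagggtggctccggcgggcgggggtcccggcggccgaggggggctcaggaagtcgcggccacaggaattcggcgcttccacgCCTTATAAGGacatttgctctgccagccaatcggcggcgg
Vcl (chr14:20929148-20929397, plus strand): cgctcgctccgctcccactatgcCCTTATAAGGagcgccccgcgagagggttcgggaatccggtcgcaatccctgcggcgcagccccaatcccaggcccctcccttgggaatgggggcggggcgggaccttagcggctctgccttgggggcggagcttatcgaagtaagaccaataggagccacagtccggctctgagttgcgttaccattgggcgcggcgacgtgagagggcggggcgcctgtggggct
Myl9 (chr2:156775214-156775419, plus strand): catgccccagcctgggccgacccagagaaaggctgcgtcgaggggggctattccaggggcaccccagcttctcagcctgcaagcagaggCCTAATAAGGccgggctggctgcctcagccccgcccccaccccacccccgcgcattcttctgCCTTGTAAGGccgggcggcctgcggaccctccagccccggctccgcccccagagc
Tpm2 (chr4:43523596-43523700, minus strand): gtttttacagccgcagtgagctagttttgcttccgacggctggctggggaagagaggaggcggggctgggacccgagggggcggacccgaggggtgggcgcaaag

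The box started 90 bases before the RefSeq gene start in Actg1, 56 in Cnn2, 227 in Vcl and 161 in Myl9. The windows of Tpm1, Tpm2 and Cnn1 held no copy, also with 1 base allowed to differ, which says only that these letters are not in these 300 bases. The RefSeq starts of all matched genes but Vcl lie inside the gene spans given below. Those of Acta2, Tpm2 and Tpm1 lie furthest in, so their windows hold few bases upstream of the outermost annotated 5′ end. The printed stretch of Tpm2 is within its span and downstream of that end.

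Values are normalized reads: the authors scaled the reads of each library to a total of 20000000, so that 1 read was worth 0.682 to 1.01 units. Libraries held 19895088 to 29305620 reads over the genes of the table. The cells carried the epithelial markers of their origin, with all 6 of Epcam, Cdh1, Krt8, Krt18, Krt19 and Cldn4 detected and summing to 44747 to 66048 units in vehicle and 47891 to 68528 units in acetate, and Cdh1, Krt19 and Cldn4 rose with acetate (log2 change 0.15, 0.40 and 0.30 by the paired fit described below). Epcam did not pass (0.07, adjusted p = 0.154), nor did Krt8 and Krt18, which had log2 changes of -0.06 and -0.05 (adjusted p = 0.214 and 0.363). Of the 6 smooth muscle markers the table held Myh11 and Des, which together stayed at or under 3.02 units in every library. The endothelial markers Pecam1 and Cdh5 summed to at most 7.06 units and the leukocyte markers Ptprc and Cd68 to 69.1 to 192 units, with none called. Of the 6 fibroblast markers it held Pdgfra, Pdgfrb and Dcn, whose sum ran from 229 to 1523 units in vehicle and from 394 to 1998 units in acetate. Pdgfra and Pdgfrb, receptors for platelet-derived growth factors, both rose with acetate (log2 change 0.52 and 1.4), as did Krt14 among the basal markers Krt14, Trp63 and Oxtr (0.36; their sum was 686 to 1258 units in vehicle and 755 to 1738 in acetate), and the part of these cell states in the results below was not tested.

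The replicate 1 pair stood apart from the other pairs in many of these genes, whatever the treatment. Actg1 was 1.87 times as high there as in the mean of replicates 2 to 4, Actb 1.56 times and Tpm1 1.45 times, while Tpm2 was 0.373 times as high. A ratio over 1.4 was seen in 3 of the 6 members with a mean of at least 10 units and in 11.2% of the 13292 genes at that level. The limit of 1.4 was not planned in advance, so these shares are description only. For those 6 members the replicate number held a median of 95.4% of the variance of the log2 values, against 90.5% over all genes at that level. Treatment was therefore compared within pairs, and the members are also given without replicate 1.

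**Figure D1:**
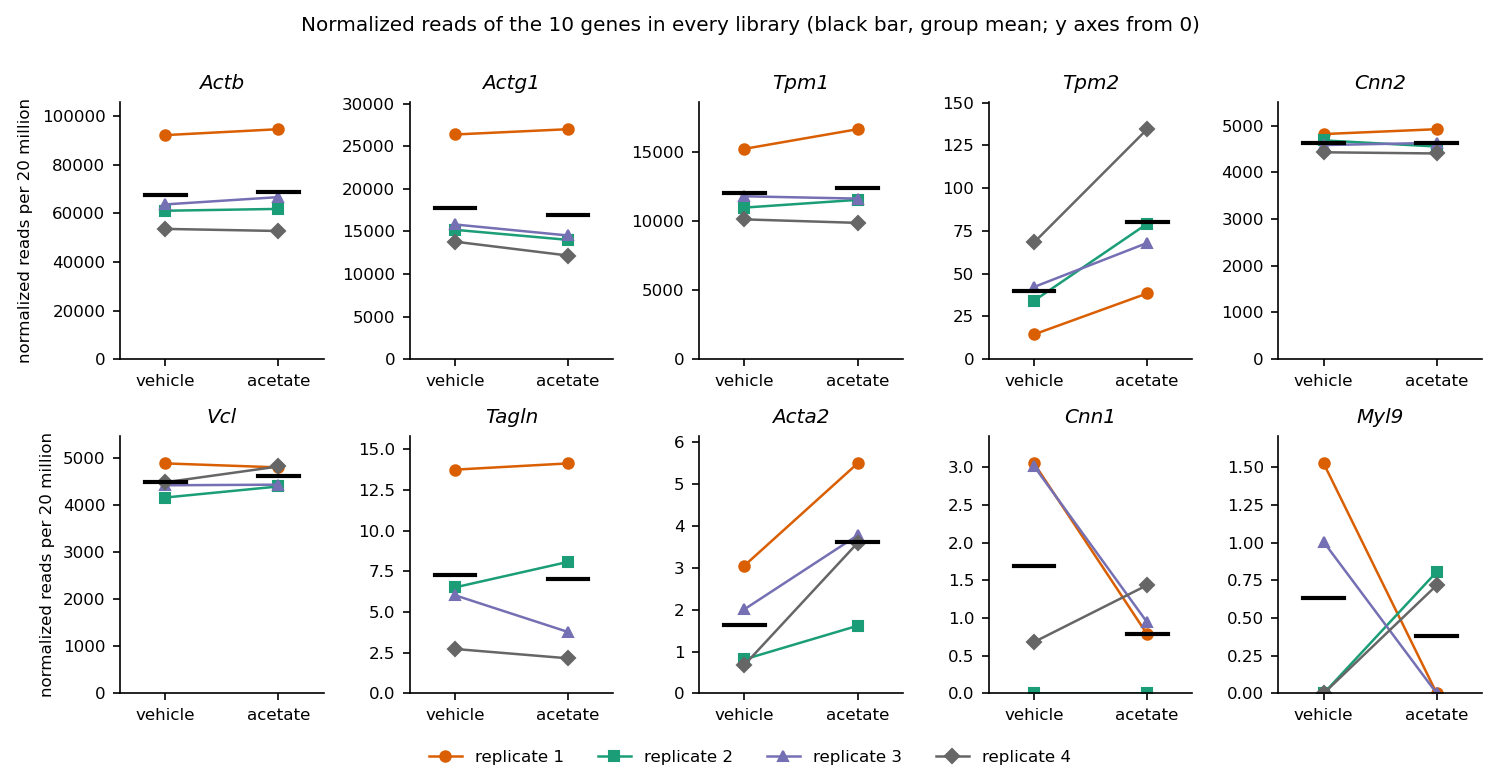
Normalized reads (y axis, per 20000000, each from 0) of the 10 genes in vehicle and acetate libraries; a line joins the 2 libraries of a pair and black bars are group means of 4 libraries. Tpm2 climbed in each pair while groups overlapped, Actb, Actg1 and Tpm1 were highest in replicate 1 in both groups, and the 4 genes of the lower row after Vcl stayed under 15 units.

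Whether acetate changed these genes was tested with limma on log2(value + 1) over all 20189 genes, with the pair as a block and Benjamini-Hochberg adjustment. Of the 10 members, 1 passed the threshold of 0.05: Tpm2, which rose. Over all genes 8.64% passed, 5.99% as higher and 2.65% as lower in acetate, and among the 13292 genes with a mean of at least 10 units 12.9% passed, so 1 of 10 members is close to the background. The same fit without the pairs called 0 of the 10 members and 0% of all genes (353 of 20189 had an unadjusted p under 0.05, none of them a member). The median log2 change of the 6 members with a mean of at least 10 units was 0.03, beside 0.01 over all genes at that level. Without replicate 1 the log2 changes were 0.94 for Tpm2 (adjusted p = 0.0033), -0.14 for Actg1 (adjusted p = 0.010), 0.02 for Actb, 0.06 for Vcl, -0.01 for Cnn2 and 0.0048 for Tpm1, and Tpm2 and Actg1 passed. The vehicle and acetate values overlapped for every member, and over all genes the groups did not overlap in 1.65%. Of the calls over all genes 69.3% were higher in acetate, a share that was 54.9% with median-of-ratios scaling, 54.8% with edgeR and 58.0% with DESeq2.

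Tpm2 (ENSMUSG00000028464, chr4:43514711-43523765, minus strand, GRCm38) encodes beta-tropomyosin, a filament-binding protein best known from muscle that non-muscle cells also make as shorter forms. Its normalized reads were 14.5, 34.2, 42.2 and 68.2 in vehicle libraries 1 to 4 and 38.5, 79.2, 67.9 and 134 in acetate libraries 1 to 4. Acetate was the higher of the pair each time, but the spread between pairs was so wide that acetate library 1 lay below vehicle libraries 3 and 4. The group means were 39.8 ± 22.3 (SD, n = 4) and 80.0 ± 40.1 (SD, n = 4).

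Within pairs Tpm2 was 2.65, 2.32, 1.61 and 1.97 times as high in acetate, and the fitted rise was 2.06-fold (95% interval 1.65 to 2.58; log2 change 1.04, SE 0.15, adjusted p = 0.0018 by limma). Of the 13292 genes with a mean of at least 10 units, 37 had a log2 change this large or larger. Pairing held 62.9% of the variance of its log2 values, treatment 35% and the remainder 2.05%. The values rested on 19 to 100 reads per vehicle library and 49 to 187 per acetate library. None of the 75-base stretches of its transcripts, the length of a read, occurs in a transcript of another gene, and no annotated gene overlaps it. The rise stayed past the threshold in each of the 12 alternatives that kept the pairs, with adjusted p from 2e-05 (edgeR) to 0.043 (limma without replicate 4), and was lost without the pairs (adjusted p = 0.9999, limma).

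The other tropomyosins were far more abundant, and their levels can be compared per kilobase of exon. Tpm4 made up 64.7% ± 1.48 (SD, n = 4) of the summed length-scaled reads of the 4 tropomyosin genes in vehicle, Tpm1 22.7% ± 1.15, Tpm3 12.4% ± 0.411 and Tpm2 0.180% ± 0.120. In acetate libraries the share of Tpm2 was 0.364% ± 0.231 (SD, n = 4), and in replicates 1 to 4 it went from 0.0518, 0.154, 0.174 and 0.341% to 0.130, 0.356, 0.291 and 0.681%. The summed tropomyosin level was higher in acetate in 1 of 4 pairs, so the gain of Tpm2 was small beside the family as a whole.

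Tpm1 (ENSMUSG00000032366, chr9:67022590-67049406, minus strand), the alpha-tropomyosin gene and a target of MRTF and SRF in many cells, measured 15194, 10951, 11767 and 10099.8 units in vehicle and 16612, 11509, 11599 and 9847 units in acetate. Replicate 1 was the highest in both groups and the order of the pairs was kept. Its log2 change was 0.04 (SE 0.03, adjusted p = 0.552 by limma), and the 95% interval ran from -2.13 to 7.38%. The log2 difference between Tpm2 and Tpm1 was not tested by itself. Tpm3 and Tpm4 did not pass either, with log2 changes of -0.06 (adjusted p = 0.180) and -0.00 (adjusted p = 0.968).

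**Figure D2:**
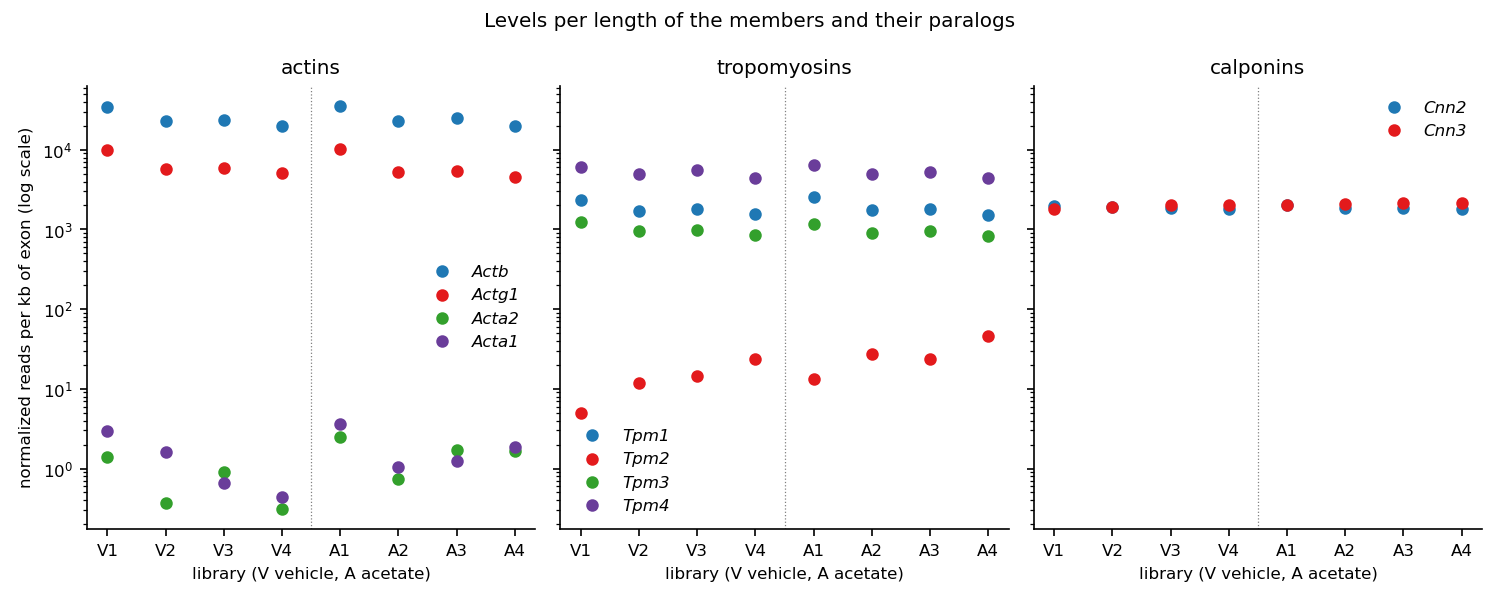
Normalized reads per kilobase of exon (y axis, log scale) in vehicle libraries V1 to V4 and acetate libraries A1 to A4, for actin, tropomyosin and calponin genes, 1 point per library. Actb and Actg1 lie over 3 orders of magnitude above Acta2 and Acta1, and Tpm2 lies far below the other tropomyosins in all 8 libraries.

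Actb (ENSMUSG00000029580, chr5:142903115-142906754, minus strand) encodes beta-actin, the main cytoplasmic actin. It was the most abundant member, with 92198.5, 61086, 63691 and 53614 units in vehicle and 94633, 61844, 66694 and 52754 units in acetate. The pairs were nearly level, and replicate 1 was far above the rest in both groups. The log2 change was 0.02 (SE 0.02, adjusted p = 0.626 by limma), with a 95% interval of the percent change from -2.07 to 5.66%.

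Actg1 (ENSMUSG00000062825, chr11:120345690-120348542, minus strand) encodes gamma-actin, which differs from beta-actin in a few residues near its amino end. Vehicle libraries held 26370.2, 15185, 15812 and 13795 units and acetate libraries 26991, 14005, 14519 and 12166 units. Acetate was the lower of the pair in replicates 2, 3 and 4 and slightly the higher in replicate 1. The log2 change was -0.10 (SE 0.03, 95% interval of the percent change -11 to -1.72%), which missed the threshold (adjusted p = 0.0987 by limma) but passed in 4 of 12 paired alternatives: edgeR (adjusted p = 0.0169), DESeq2 (0.0454), quantile normalization (0.0308) and limma without replicate 1 (log2 change -0.14, adjusted p = 0.010).

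The ratio of Actb to Actg1 per length was 3.47, 3.99, 4.00 and 3.86 in vehicle and 3.48, 4.38, 4.56 and 4.30 in acetate. It was higher in acetate in each pair, by next to nothing in replicate 1. The mean log2 change of the ratio was 0.12 (SD 0.08, n = 4 pairs; exact sign-flip permutation test, two-sided, p = 0.13, the smallest that 4 pairs allow). Actg1 was 22.4% of the length-scaled reads of the actin genes in vehicle library 1 and 22.3% in acetate library 1, but 20.0, 20.0 and 20.6% in vehicle libraries 2 to 4 and 18.6, 18 and 18.9% in acetate libraries 2 to 4. Of the 75-base stretches of Actg1 transcripts, 33.5% also occur in transcripts of other genes, mostly processed pseudogenes. The table listed 9 of these, summing to 2.61% of the Actg1 level with none of them called, so a share of Actg1 reads may be counted elsewhere or lost. For Actb that share was 1.58%.

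Acta2 (ENSMUSG00000035783, chr19:34241090-34255590, minus strand), the smooth muscle alpha-actin that marks myofibroblasts, was at the limit of detection. It had 4, 1, 2 and 1 reads in vehicle libraries and 7, 2, 4 and 5 in acetate libraries, or 3.05, 0.814, 2.01 and 0.682 units against 5.49, 1.62, 3.77 and 3.59. Acetate was higher in 4 of 4 pairs, as it was for 16.7% of all genes. The adjusted p was 0.178 (limma). It was 0.136 to 0.450 in the paired alternatives that gave one (DESeq2 gave none) and 0.9999 without the pairs, and every value rested on 7 reads or fewer.

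The calponins were split like the actins into a scarce smooth muscle form and abundant general ones. Cnn1 (ENSMUSG00000001349, chr9:22099216-22109630, plus strand), the smooth muscle calponin, had 4, 0, 3 and 1 reads in vehicle and 1, 0, 1 and 2 reads in acetate, too few for a fold change. Cnn2 (ENSMUSG00000004665, chr10:79988584-79996062, plus strand), the calponin of non-muscle cells, had 4817, 4682, 4582 and 4428 units in vehicle and 4922, 4551, 4629.9 and 4402 units in acetate. Its group means were 4627 ± 164 and 4626 ± 218 (SD, n = 4 each) and the 95% interval of the change ran from -3.93 to 3.96% (adjusted p = 0.991 by limma). It was the steadiest member over all 8 libraries.

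Tagln (ENSMUSG00000032085, chr9:45929619-45936058, minus strand) encodes transgelin, an early marker of smooth muscle. It had 18, 8, 6 and 4 reads in vehicle and 18, 10, 4 and 3 in acetate, with 13.7 and 14.1 units in the replicate 1 libraries and at most 8.08 units in any other. The log2 change was -0.12 (SE 0.30, adjusted p = 0.872 by limma), and the 95% interval was wide, from -41.4 to 44.1%. Tagln overlaps Pcsk7 (473 units) on the opposite strand, and it is not given if reads were counted by strand. Myl9 (ENSMUSG00000067818, chr2:156775420-156781658, plus strand), a regulatory light chain of smooth muscle and non-muscle myosin, had 2, 0, 1 and 0 reads in vehicle and 0, 1, 0 and 1 in acetate, with no measurable difference at this depth.

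Vcl (ENSMUSG00000021823, chr14:20929398-21033676, plus strand) encodes vinculin, which joins talin at adhesions to actin filaments. It measured 4886, 4161, 4421 and 4485 units in vehicle and 4801, 4396, 4435 and 4821 units in acetate, with the highest vehicle library above every acetate library. The log2 change was 0.04 (SE 0.03, adjusted p = 0.464 by limma) and the 95% interval ran from -1.63 to 7.54%. Ap3m1 lies on the opposite strand within its span (1335 units).

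**Figure D3:**
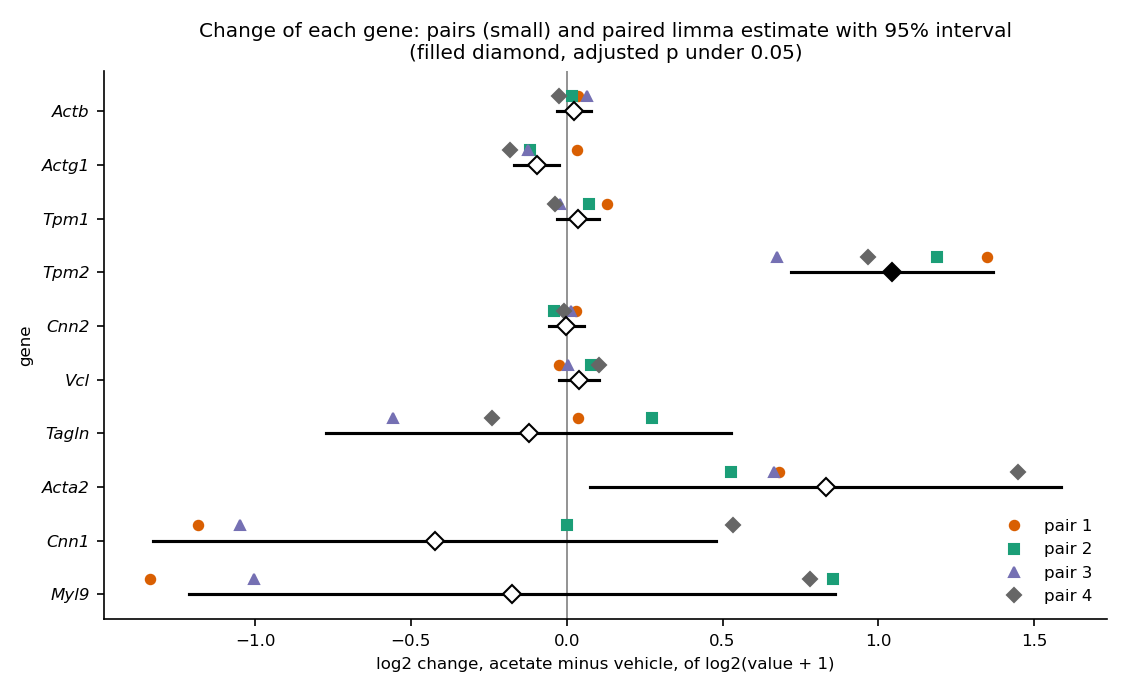
Log2 change in acetate relative to vehicle (x axis) for each gene; small symbols are the 4 pairs, diamonds the paired limma estimate and lines its 95% interval, with a filled diamond where the adjusted p was under 0.05. Tpm2 alone is filled at 1.04, the intervals of Actb, Tpm1, Cnn2 and Vcl are narrow and include 0, and those of Tagln, Acta2, Cnn1 and Myl9 are wide.

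Ordered by level per kilobase of exon over the 8 libraries, Actb came first with a mean of 25499.9 units and Actg1 second with 6529.5, and their ranges did not meet. Tpm1 and Cnn2 followed at 1881 units each, with Cnn2 (1789.5 to 2001) inside the range of Tpm1 (1518 to 2562), so these neighbours did not differ beyond their spread. Vcl stood at 556 and Tpm2 at 20.6 units. Tagln (3.59), Acta2 (1.2), Cnn1 (0.453) and Myl9 (0.437) came last, each overlapping the next, and in vehicle library 1 Tagln (6.91) was even above Tpm2 (4.99). Length here is the union of all annotated exons, which lowers the value of genes with many isoforms such as Tpm1.

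Several members kept in step from library to library. Over the 8 libraries, which share 4 experiments and so are not independent, the Pearson correlation of log2 values was 0.99 between Actb and Tpm1, 0.97 between Actb and Actg1 and 0.95 between Actb and Cnn2. Tpm2 ran the other way, with r = -0.75 against Actb and -0.80 against Actg1. Vcl was loosely related to Actb (r = 0.49). Replicate 1 held the highest Actb, Actg1, Tpm1 and Cnn2 and the lowest Tpm2 of each group.

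The genes most like the 6 measurable members, by Pearson correlation with the mean of their standardized log2 values among 10287 genes with a mean of at least 100 units, were Rras2 (r = 0.995 over 8 libraries), Rnf10 (0.993), Uck2 (0.988), Fig4 (0.988) and Ubqln1 (0.988). Rras2, a small GTPase related to Ras, measured 1819, 1244, 1329 and 1222 units in vehicle and 2119.8, 1380.4, 1362 and 1329 in acetate. All 5 were highest in the replicate 1 pair, by 1.27 to 1.51 times the mean of the others. The mean they follow includes Tpm2, which ran the other way, and the loosely related Vcl. They are therefore not like each single member. With acetate, Rras2 rose slightly (log2 change 0.13, adjusted p = 0.0464 by limma) and the other four did not pass. Rras2 passed in 4 of 12 paired alternatives and was lost with any 1 pair left out (adjusted p = 0.0776 to 0.188).

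The wider pathway was read from 8 lists of actin and SRF genes that share no gene with the members or with each other. The table held 114 of their 119 genes, of which 19 rose and 3 fell. The split depended on the scaling and tool, with 13 higher and 5 lower for median-of-ratios scaling, 21 and 5 for edgeR and 8 and 4 for DESeq2. The 22 calls are 19.3% of the list genes, and 20.6% of the 107 with a mean of at least 10 units. Over all genes the shares are 8.64% and 12.9%. The lists were chosen with earlier results of these data known, so this comparison is description only. The median log2 change of those 107 genes was 0.02, beside 0.01 over all genes at that level, and 2 of the 114, Cnn3 and Ppp1cb, did not overlap between groups, near the 1.65% over all genes. Each of the 22 called genes went the same way in 4 of 4 pairs, which a call by the paired fit largely requires. Without the pairs none was called, as for all genes.

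SRF and its partners did not pass the test. Of 8 genes measured 0 rose and 0 fell, with log2 changes from -0.07 to 0.04. Srf itself measured 1569.7, 877, 945 and 736 units in vehicle and 1491, 871, 886 and 765 units in acetate (log2 change -0.03, SE 0.04, adjusted p = 0.710 by limma). Mrtfa, which encodes MRTF-A, had the widest change of the list, -0.07 (adjusted p = 0.276), and was the lower in acetate in each pair, while Mrtfb had 0.02 (adjusted p = 0.822).

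Among the close paralogs of the members, 1 of 8 passed. Cnn3, the acidic calponin, rose from 5486, 5799, 6124 and 6127 units to 6242, 6396, 6446 and 6512 units, and the groups did not overlap. The change was small (log2 change 0.12, SE 0.03, adjusted p = 0.0178 by limma) and passed in 6 of 12 paired alternatives, with the call lost when any 1 pair was left out (adjusted p = 0.0555 to 0.121). Cnn2 and Cnn3 were near equal per length in vehicle, at 49.3% ± 2.16 and 50.7% ± 2.16 of the calponin reads (SD, n = 4).

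Of the 16 other contractile and matrix targets of SRF, 6 rose and 0 fell. Thbs1, which encodes the matrix protein thrombospondin-1, rose most, from 6201, 3169, 2938 and 7721 units to 8923, 5559, 4586 and 9877 units (log2 change 0.58, SE 0.06, adjusted p = 0.000248 by limma). Each acetate library was above its vehicle partner, and the pairs themselves differed more than the treatments. Lima1, a filament cross-linking protein also called EPLIN, rose by 0.30 (adjusted p = 0.000566) and Filip1l by 0.28 (adjusted p = 0.0455). Thbs1 and Lima1 passed in all 12 paired alternatives and Filip1l in 5. The other three, Csrp1, Csrp2 and Cald1, rose by 0.11 to 0.20. Filip1l lost its call without any 1 of the pairs (adjusted p = 0.0768 to 0.167).

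Of the 9 immediate early targets of SRF, which respond within minutes to serum, 2 rose. Dusp1, a phosphatase of MAP kinases, rose by 0.26 (adjusted p = 0.0495) and Nr4a1, an orphan nuclear receptor, by 0.20 (adjusted p = 0.0264), and they passed in 2 and 7 of 12 paired alternatives. Dusp1 was lost without any 1 pair (adjusted p = 0.0957 to 0.219) and Nr4a1 without replicate 2, 3 or 4 (0.133, 0.135 and 0.0803). The levels of this list varied far more between pairs than with acetate. Fos ran from 41.2 units in vehicle 1 to 1617 in vehicle 4, and its acetate values followed, from 50.2 to 1487.

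Of 8 genes of myosin II and its regulators, which include the smooth muscle heavy chain Myh11, the kinase Mylk and the phosphatase subunits Ppp1r12a and Ppp1cb, only Myh14 passed. It encodes the heavy chain of myosin IIC and rose from 395, 497, 532 and 988 units to 640.4, 769, 737 and 1178 units (log2 change 0.51, SE 0.06, adjusted p = 0.000878 by limma). The change was present in each pair and passed in 12 of 12 paired alternatives.

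The 21 focal adhesion and crosslinking genes went both ways, with 3 that rose and 2 that fell. Tns1, the adhesion protein tensin-1, rose from 57.3, 123, 136 and 274 units to 75.3, 293, 192 and 515 units (log2 change 0.76, SE 0.12, adjusted p = 0.00368 by limma). Its order of replicates in vehicle was that of Tpm2, lowest in replicate 1 and highest in replicate 4. Flnc, the muscle form of filamin, rose by 0.42 (adjusted p = 0.00104) and Lpp, a partner of zyxin, by 0.14 (adjusted p = 0.0243). Tln1, which encodes talin-1 and couples integrins to vinculin, decreased by 0.16 on the log2 scale (adjusted p = 0.0035), and Flna, the broadly used filamin, decreased by 0.12 (adjusted p = 0.014). Flnc passed in 12 of 12 paired alternatives, Tns1 and Tln1 in 11, Flna in 9 and Lpp in 7. Tns1 was lost without replicate 4 (adjusted p = 0.0795), Tln1 without replicate 3 (0.057), and Flna (0.078 to 0.127) and Lpp (0.0855 to 0.153) without each of replicates 2, 3 and 4. In the fit with all pairs, Flnc and Flna thus moved in opposite directions, with Flna the more abundant by far (33203 against 3361 units in vehicle 1).

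Of the 29 genes of actin assembly and turnover, 5 rose and 1 fell. Enah, a protein that lengthens filaments at the cell edge, rose by 0.28 (adjusted p = 0.00193), Pfn2, a monomer-binding profilin, by 0.26 (adjusted p = 0.0243) and Tmsb4x, which encodes the monomer-sequestering thymosin beta-4, by 0.18 (adjusted p = 0.00512). Capg, a capping protein of filament ends, decreased by 0.11 on the log2 scale (adjusted p = 0.0185). Enah passed in 12 of 12 paired alternatives, Tmsb4x in 9, Capg in 8 and Pfn2 in 7. Capg was lost without any 1 pair (adjusted p = 0.0531 to 0.121), and Tmsb4x (0.0528, 0.054 and 0.0556) and Pfn2 (0.064, 0.15 and 0.0998) without each of replicates 2, 3 and 4.

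The difference of replicate 1 from the other pairs also had a pattern over these lists, described here for genes picked after their values were seen. Ccn1 and Ccn2, matrix-associated targets shared by SRF and YAP, were 4.99 and 3.70 times as high in replicate 1 as in the mean of the others, Ankrd1 1.93 times and Srf 1.81 times. Egr2, Fos, Egr3 and Egr1 were 0.0439, 0.0782, 0.0890 and 0.101 times as high there. A ratio under 0.7 was found for 7 of the 9 immediate early genes and for 32.8% of all genes with a mean of at least 10 units. This limit was not planned in advance either. None of Ccn1, Ccn2 or Ankrd1 passed with acetate (log2 changes of 0.02, 0.04 and -0.03). Their pairs went opposite ways, with log2 changes of 0.49, 0.41 and 0.28 in replicate 1. In replicate 2 the changes were 0.21, 0.15 and -0.05, and each gene was lower in acetate in replicates 3 and 4. What set the replicate 1 experiment apart is not given in the labels.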

How the data were processed

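RNA was measured in 8 libraries of 4T1 cells (4 vehicle, 4 acetate) with a stranded mRNA kit and 75-base reads. Per the authors' methods, reads were aligned to the mouse transcriptome (GRCm38, mm10) and quantified per gene with STAR, and the processing notes also name HTSeq. It is not given if reads were counted by strand. The deposited values are a normalized signal: the authors scaled the read counts of each library to a total of 20000000 and kept genes expressed in at least 4 of the 8 libraries. Every value was a whole multiple of the value of 1 read (100% in each library, within 0.1 of a read). This gave back the reads, 19895088 to 29305620 per library. Vehicle library 3 also gave 100%, but 1 read there was worth 1.01 units. As that is close to 1, the library was treated as unchecked.

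From these values, identifiers were matched to GENCODE M21 (20004 of 20189 had a symbol), and limma 3.58.1 (R 4.3.3; eBayes with trend, two-sided) was fitted on log2(value + 1) over all 20189 genes with the replicate number as a block. P-values were adjusted by Benjamini and Hochberg and called under 0.05. Fold changes on this scale understate those of low genes. The labels give same-numbered libraries 1 experiment code. Their deviations from the group means correlated across 18188 genes at 0.814, 0.273, 0.201 and 0.691 for replicates 1 to 4. Libraries with different numbers were not compared, so the pairing rests on the labels. P-values measure the spread between these experiments with 1 cell line.

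Alternatives were no block, pseudocounts of 0.1 and 5, a filter at a mean of 10 units, median-of-ratios and quantile scaling, edgeR 4.0.16 and DESeq2 1.42.0 on recovered reads, and each pair left out. An edgeR fit without the replicate 3 pair was added after seeing the data. Members and lists were chosen with earlier results of these data known. Named genes were the members, up to 3 rises and 3 falls per list that passed with a mean of at least 10 units, Srf, Mrtfa, Mrtfb, and the 5 genes most like the members; genes named outside this rule were picked after their values were seen. Of the 8 lists, 1 counts in the totals over list genes but is not reported here by itself.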

Additional observations from a re-analysis of the deposited data

Results flagged for a closer look

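In 7 of 72 groups of 4 libraries tested, 1 library lay apart from the other 3 by more than Dixon's 95% limit for the gap as a share of the range, where chance gives about 1 in 20, or 3.6. All 7 were replicate 1 libraries. The groups are not independent, as vehicle and acetate libraries share experiments, so 3.6 is only a rough guide. Rras2 and Fig4 were picked for following the mean of the members, which was highest in replicate 1. Their flags there are therefore not separate evidence. For Actg1 this held in both groups: vehicle library 1 (26370.2 units, others 13795 to 15812, gap 0.840 of the range) and acetate library 1 (26991 units, others 12166 to 14519, gap 0.841). Acetate library 1 was also apart for Srf (1491 units, others 765 to 886, gap 0.833), Filip1l (2326 units, others 1227 to 1333, gap 0.904) and Rras2 (2119.8 units, others 1329 to 1380.4, gap 0.935), all of them high there, and for Enah, which was low there (2127 units, others 2654 to 2745, gap 0.852). Fig4 was high in vehicle library 1 (666 units, others 431 to 465, gap 0.852). What set replicate 1 apart was not tested.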

How the results depend on the processing

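Without the replicate block, 0 members and 0 list genes passed, as did 0 of all genes (1744 with the pairing), while every fitted change kept its value. Of the members, 2 passed in place of 1 with quantile normalization, with edgeR and with DESeq2, and leaving out each replicate in turn gave 1 to 2. The second was Actg1 each time. List genes called were 12 with DESeq2 and 12 with edgeR without the replicate 3 pair, against 22, and 6 to 17 with each replicate left out. Calls over all genes were 1126 with DESeq2, and 617, 409 and 539 without replicates 2, 3 and 4. The blocked fits changed no other member call. Directions turned for members and genes that did not pass: with edgeR without the replicate 3 pair Actb was at -0.0128, Tagln at 0.0499 and Myl9 at 0.0405, and with each replicate left out Tagln ranged from -0.25 to 0.0232, Myl9 from -0.52 to 0.21, Cnn2 from -0.0115 to 0.0125 and Mrtfb from -0.0011 to 0.0401. The log2 change of Tpm2 ranged from 0.94 to 1.17 over paired alternatives. Reads limit Acta2, Tagln, Cnn1 and Myl9, at 0 to 18 per library. The ratio of Actb to Actg1 kept its direction throughout, and its exact permutation p was 0.314 without the pairs.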
